A study of Mus musculus with 3 samples.

Results

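The outer dense fibre, fibrous sheath and mitochondrial capsule genes of the sperm tail were represented by 10 of the 26124 genes listed in each of the 3 single-cell matrices: Odf1, Odf2, Odf3, Odf4, Akap3, Akap4, Smcp, Oaz3, Tppp2 and Akap12. They were matched by symbol, and all 10 symbols were found in all 3 matrices. The first library was a percutaneous aspirate of the cauda epididymis of a chimera, a Tsc22d3-KO goGermline host complemented with mouse induced pluripotent stem cells (iPSC; line Pax7-nGFP iPS x goGermline), and the submitters labelled its cells as spermatids and spermatozoa. The second, labelled as epididymal cells, was aspirated in the same way from the cauda of a Tsc22d3-KO goGermline mouse without iPSC, and the third was dissociated from the testis of an adult mouse of the same knockout. The Tsc22d3 knockout, which leaves males of the goGermline strain without mature germ cells, was carried by all hosts, each group was 1 library from 1 animal, and the chimera contained host and donor cells that the count tables do not separate. The chimera cauda is therefore set against the KO cauda without a replicate check or a test, and every interval given is an exact 95% interval that covers counting error only.

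The sperm tail is built around an axoneme of microtubules. In the midpiece and principal piece the axoneme is surrounded by the outer dense fibres, in the midpiece also by a helical sheath of mitochondria, and in the principal piece by the fibrous sheath, to which protein kinase A and glycolytic enzymes are anchored. The transcripts for these structures are made in spermatids, and many are stored before they are translated, while mature spermatozoa carry little RNA.

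The chimera cauda table held 5395856 unique molecular identifiers (UMIs, each taken as 1 captured transcript) on 214502 barcodes, of which 222 carried at least 500 UMIs. The KO cauda table held 41862286 UMIs on 3937 barcodes and that of the KO testis 134795047 UMIs on 18108 barcodes. The cauda libraries shared barcodes: all 3937 KO cauda barcodes were also listed in the chimera table. Of these, 121 carried more UMIs in the chimera table, at a median of 5.51 times the KO cauda count (range 4.47 to 12.1), and held 51.9% of all chimera UMIs and 1.13% of KO cauda UMIs. The other 3816 carried no more in the chimera table, at a median of 0.00901 times the KO cauda count, and held 6.90% of chimera UMIs. Of the KO testis barcodes, 1350 (7.46%) were listed in the chimera table, with a median of 1 UMI there, and 14 in the KO cauda. Tsc22d3 itself had 123 UMIs in the chimera cauda (22.8 CPM, UMIs per 1000000 UMIs of the library), against 453 (10.8 CPM) for the KO cauda and 816 (6.05 CPM) for the KO testis; 3′ tags outside the deleted part would still be counted, so this does not check the labels. Ratios of the chimera cauda to the KO cauda, for the 10 genes and for other gene lists, are given with all barcodes and again without the barcodes that carried more UMIs in the other cauda library.

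Promoter sequence was matched for 7 of the 10 genes, in 11 windows that ran from 250 bases before to 50 bases after a RefSeq gene start on the GRCm38.p6 build; Odf1, Oaz3 and Akap12 had no window. The windows of Akap3 and Akap4, the fibrous sheath anchoring proteins, and of Smcp, the mitochondrial capsule protein, are printed because they hold the 8-letter run TGATGTCA, which differs by 1 letter from the palindromic cyclic AMP response element TGACGTCA and is shown in capitals. They lie at chr6:126852848-126853147 on the plus strand, chrX:7067265-7067564 on the plus strand and chr3:92589024-92589323 on the minus strand, and each reads 5′ to 3′ along its gene.
Akap3: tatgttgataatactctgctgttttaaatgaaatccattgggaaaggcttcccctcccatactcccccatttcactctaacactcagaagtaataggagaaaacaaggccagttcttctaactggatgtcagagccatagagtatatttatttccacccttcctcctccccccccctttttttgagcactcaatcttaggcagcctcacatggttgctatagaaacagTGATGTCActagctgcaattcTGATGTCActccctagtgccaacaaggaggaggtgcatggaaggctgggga
Akap4: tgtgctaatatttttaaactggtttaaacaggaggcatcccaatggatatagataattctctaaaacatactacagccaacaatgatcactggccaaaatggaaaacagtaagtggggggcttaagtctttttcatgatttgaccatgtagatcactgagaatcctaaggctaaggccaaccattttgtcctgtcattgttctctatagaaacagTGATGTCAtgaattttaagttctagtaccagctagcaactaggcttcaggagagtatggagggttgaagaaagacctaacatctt
Smcp: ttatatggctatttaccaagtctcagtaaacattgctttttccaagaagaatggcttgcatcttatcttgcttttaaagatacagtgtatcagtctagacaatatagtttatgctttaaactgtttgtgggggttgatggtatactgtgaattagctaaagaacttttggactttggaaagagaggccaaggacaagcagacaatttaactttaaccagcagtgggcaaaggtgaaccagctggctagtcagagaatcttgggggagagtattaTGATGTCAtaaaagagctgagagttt
The run began at position -22 and again at -1 from the start of Akap3, at -35 from that of Akap4 and at 24 after that of Smcp, on the gene's own strand each time. Searched on both strands (reverse complement TGACATCA), it was present in 3 of the 7 genes and in 3.62% of the 32851 windows searched, or 4.18% of 27025 genes, with 1 chromosome left out. The run TGACGTCA was in none of the 7 and in 1.79% of windows. Akap3 and Akap4 shared the 20-base stretch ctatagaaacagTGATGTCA, beginning at -34 and -47, a stretch found in 2 of the 32851 windows when read along the gene's strand only. The Smcp, Akap3 and Akap4 windows shown contained 38%, 45.3% and 38.3% G or C and 0 CpG. The 4 overlapping windows of Odf2, a gene also used at the centriole, contained 68% to 74.3% G or C and 26 to 43 CpG. The median of the windows searched was 52.7% G or C (10th to 90th percentile 39.7% to 69.7%). The runs were chosen after the sequences had been seen, and a match describes the letters only.

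All 10 genes were at least 4-fold higher in the chimera cauda than in the KO cauda, where 9.71% of the 17008 genes with more than 3 UMIs in either library were that much higher. In the deeper KO cauda, Odf3 and Odf4 had 0 UMIs and Akap3 and Akap4 had 2 each. With more than 3 chimera UMIs, these genes could not fall below 4-fold. With the KO cauda counts thinned at random to the chimera total, Odf3 was at 1.67 and the other members stayed at least 4-fold higher. The median log2 ratio of the 10 genes was 8.97, against 0.20 for all measured genes. Together they made up 0.778% of chimera cauda UMIs, 0.00320% of KO cauda UMIs and 0.0149% of KO testis UMIs, and Odf2 and Akap12 supplied most of both KO sums. In such sums over barcodes, fewer cells of a type and less RNA per cell cannot be told apart. By level in CPM, the order in the chimera cauda was Smcp, Odf1, Oaz3, Tppp2, Akap12, Odf2, Akap4, Akap3, Odf4 and Odf3; the intervals of Akap12 and Odf2 overlapped, as did those of Akap3 and Odf4, and those of every other pair of neighbours were apart. These are levels of 3′ tags, 1 per molecule, and were not divided by gene length. The chimera table lists barcodes down to 1 UMI and the KO tables none below 500; over barcodes of at least 500 UMIs alone, 8 of the 9 measured genes were at least 4-fold higher, against 6.01% of 16591 genes, the exception being Odf2, and Odf3 had too few UMIs to be measured. In that setting Odf4, Akap3 and Akap4, with 2 or fewer KO cauda UMIs, could again not fall below 4-fold. Over all barcodes, 6 of 6 members that reached 100 CPM in the higher library were at least 4-fold higher, against 6.11% of 1425 genes. All 6 passed this filter through the chimera cauda, and the highest KO cauda level among them was 26.9 CPM (Odf2). The 1425 genes could pass through either library, so this count adds no separate support.

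**Figure D1:**
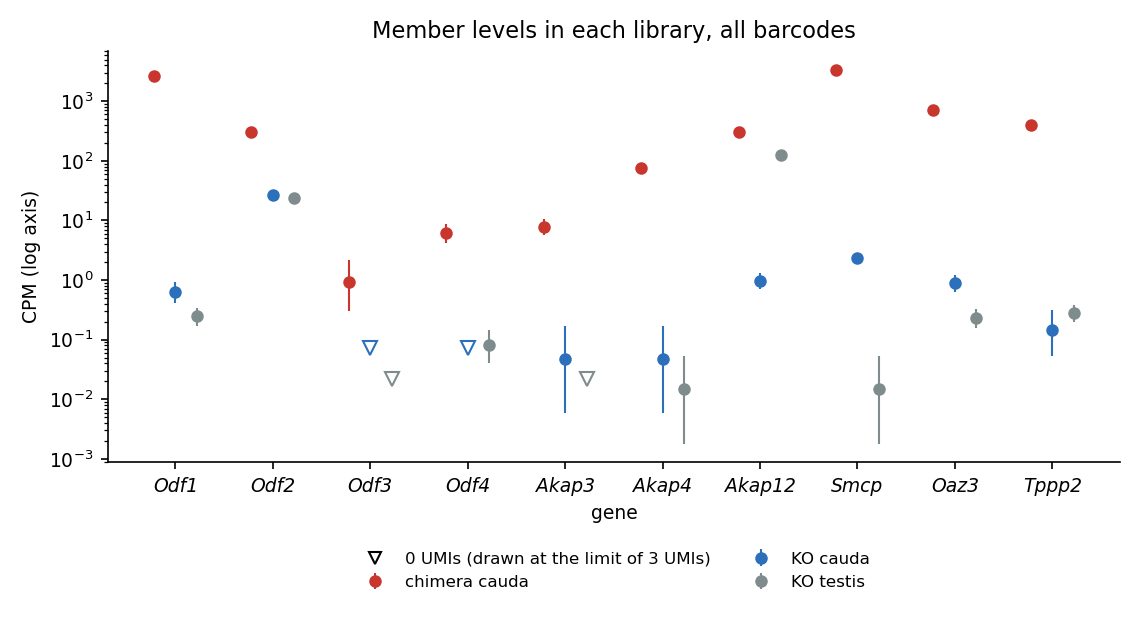
Level of each gene in CPM (log axis), by library (colours as in the legend), with exact 95% intervals. Open triangles mark genes with 0 UMIs, drawn at the level that 3 UMIs would give. The chimera cauda point is the highest for every gene, and Odf2 and Akap12 are the genes with levels above 20 CPM in a KO library.

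The outer dense fibre genes differed widely in level. Odf1 (ENSMUSG00000061923, chr15:38219203-38226735, plus strand; this and the following gene positions are GENCODE M21 on GRCm38), a major cysteine-rich protein of the fibres, had 14084 UMIs or 2610 CPM (2567 to 2654) in the chimera cauda, against 26 UMIs or 0.621 CPM (0.406 to 0.910) in the KO cauda, while the KO testis had 33 UMIs or 0.245 CPM (0.169 to 0.344). It was 4203-fold higher in the chimera cauda (2867 to 6436). Most of the KO cauda UMIs of Odf1 lay on the barcodes richer in the chimera table: without barcodes richer in the other library, 13971 UMIs remained in the chimera cauda and 2 in the KO cauda, a ratio of 57552 (15929 to 475269). Odf2 (ENSMUSG00000026790, chr2:29889221-29931746, plus strand), which encodes a fibre protein and, as cenexin, a protein of centriole appendages, had 1610 UMIs or 298 CPM (284 to 313) in the chimera cauda, against 1127 UMIs or 26.9 CPM (25.4 to 28.5) in that of the KO mouse. The KO testis had 3186 UMIs or 23.6 CPM (22.8 to 24.5). The chimera to KO cauda ratio of 11.1 (10.3 to 12) was the lowest of the 10, and it was 2.47 (2.12 to 2.88) over barcodes with at least 500 UMIs, below the 4-fold mark. Odf3 (ENSMUSG00000025482, chr7:140847805-140851018, plus strand), a protein of the sperm tail, had 5 UMIs or 0.927 CPM (0.301 to 2.16) in the chimera cauda and 0 UMIs in each KO library, where 3 UMIs would be 0.0717 CPM in the cauda and 0.0223 CPM in the testis. Set against 3 UMIs in the KO cauda, its ratio was 12.9, with an exact lower limit of 7.11. Odf4 (ENSMUSG00000032921, chr11:68921835-68927081, minus strand), another tail protein, had 33 UMIs or 6.12 CPM (4.21 to 8.59) in the chimera cauda and 0 UMIs in the KO cauda, a ratio of 85.3 against 3 UMIs (lower limit 65.6). The KO testis had 11 Odf4 UMIs or 0.0816 CPM (0.0407 to 0.146).

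Akap4 and Akap3 encode the main anchoring proteins that hold protein kinase A at the fibrous sheath. Akap4 (ENSMUSG00000050089, chrX:7067519-7078609, plus strand) had 416 UMIs or 77.1 CPM (69.9 to 84.9) in the chimera cauda and 2 UMIs in each of the KO libraries, a ratio to the KO cauda of 1614 (444 to 13369). Both KO cauda UMIs were on 1 barcode that carried more UMIs in the chimera table, and without such barcodes Akap4 was at least 1140-fold higher (415 UMIs against 0). Akap3 (ENSMUSG00000030344, chr6:126853098-126874308, plus strand) was a low-count gene, with 42 UMIs or 7.78 CPM (5.61 to 10.5) in the chimera cauda and 2 UMIs in that of the KO mouse, a ratio of 163 (42.4 to 1389), and it had 0 in the KO testis. Akap12 (ENSMUSG00000038587, chr10:4266380-4359470, plus strand), a scaffold for protein kinases A and C that is also used in somatic cells, had 1634 UMIs or 303 CPM (288 to 318) in the chimera cauda, against 41 UMIs or 0.979 CPM (0.703 to 1.33) in that of the KO mouse. It had the highest KO testis level of the 10 genes, with 16763 UMIs or 124 CPM (122 to 126). The chimera cauda was 309-fold (227 to 433) above the KO cauda for Akap12.

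Smcp (ENSMUSG00000074435, chr3:92583867-92588997, minus strand), a cysteine-rich protein of the mitochondrial capsule in the midpiece, had the highest level of the 10 genes. It had 18100 UMIs or 3354 CPM (3306 to 3404) in the chimera cauda, against 98 UMIs or 2.34 CPM (1.90 to 2.85) in that of the KO mouse, and 2 UMIs in the KO testis. Its ratio of 1433 (1175 to 1766) became 37039 (14464 to 135956) without barcodes richer in the other library, when 17983 UMIs stood against 4. Oaz3 (ENSMUSG00000028141, chr3:94432414-94443915, minus strand), the antizyme made in spermatids, had 3885 UMIs or 720 CPM (698 to 743) in the chimera cauda, against 37 UMIs or 0.884 CPM (0.622 to 1.22) in that of the KO mouse, a ratio of 815 (590 to 1159). Its KO testis level was 0.230 CPM (0.156 to 0.326). Tppp2 (ENSMUSG00000008813, chr14:51918425-51920700, plus strand), a tubulin-binding protein of the sperm midpiece, had 2179 UMIs or 404 CPM (387 to 421) in the chimera cauda, against 6 UMIs or 0.143 CPM (0.0526 to 0.312) in that of the KO mouse, a ratio of 2818 (1292 to 7686). Its KO testis level was 0.282 CPM (0.199 to 0.387). These 3 genes were thus high in the chimera cauda and close to 0 in both KO libraries. Oaz3 overlaps 2 listed genes on the other strand and Odf3 overlaps 1; the other 8 genes overlap none.

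Leaving out barcodes richer in the other cauda library took most of the remaining UMIs of the tail genes away from the KO cauda. The genes other than Odf2 and Akap12 summed to 171 UMIs in the KO cauda, and 19 remained. A single KO cauda barcode of 622 UMIs held 88 of the 98 Smcp UMIs, 22 of the 37 Oaz3 UMIs, 17 of the 26 Odf1 UMIs and 5 of the 6 Tppp2 UMIs of that library; the same barcode carried 2781 UMIs in the chimera table, with 392 of Smcp, 103 of Odf1, 89 of Oaz3 and 24 of Tppp2. A second, of 714 UMIs, carried 148 UMIs of sperm chromatin genes, 6 of Odf2, 5 of Smcp and both Akap4 UMIs, and 4162 UMIs in the chimera table. Odf2 and Akap12 did not share this pattern: 1104 of 1127 Odf2 UMIs and 40 of 41 Akap12 UMIs remained in the KO cauda, giving ratios of 11.8 (11 to 12.8) and 335 (245 to 471). Oaz3 then had 3873 UMIs against 11, a ratio of 2901 (1619 to 5816). Tppp2 had 2158 against 0 and was at least 5926-fold higher. Akap3, at 173 (45 to 1475), was little changed. So were Odf4, at 90.6 (lower limit 69.7), and Odf3, at 13.7 (lower limit 7.55), both against 3 UMIs. The count of genes at least 4-fold higher was again 10, against 10.3% of all measured genes. Odf1, Odf3, Odf4, Akap3, Akap4 and Tppp2, with 2 or fewer KO cauda UMIs left, could not fall below 4-fold.

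The ratios were smaller when both caudae were read over barcodes of at least 500 UMIs, the minimum of the KO cauda table. Odf1 was then 861-fold higher in the chimera cauda (585 to 1322), Tppp2 842-fold (383 to 2310) and Smcp 572-fold (468 to 706). Oaz3 stood at 294-fold (211 to 421), Akap4 at 235-fold (60 to 2019; 2 KO cauda UMIs), Akap12 at 123-fold (88.5 to 174) and Akap3 at 64-fold (13.3 to 609; 2 KO cauda UMIs). Odf4 was at least 19-fold higher, from 4 UMIs in the chimera cauda and 0 in the KO cauda.

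Within the chimera cauda, the transcripts were spread thinly over many barcodes. Smcp was found on 10632 barcodes, of which 82.9% carried 1 UMI of it and 85 carried at least 10, with a highest value of 392. Odf1 was found on 9908 barcodes, 81.9% of them with 1 UMI, and reached 158 UMIs on its highest. Akap4 was found on 366 barcodes, 92.9% of them with 1 UMI, and exceeded 9 UMIs on a single barcode; Akap3, Odf4 and Odf3 were found on 37, 31 and 4. Barcodes with fewer than 500 UMIs held 82.8% (82.4 to 83.1) of the UMIs of the 10 genes but 45.5% of all UMIs. That share ran, for the 7 most abundant genes, between 78.2% for Smcp and 92.1% for Akap4.

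The share of UMIs that came from the 10 genes was highest in barcodes of intermediate size. Without barcodes richer in the KO cauda, it was 0.676% on barcodes of 1 to 4 UMIs and 1.70% at 20 to 49. It was 2.53% from 100 to under 200, 3.72% from 200 to under 500 and 6.81% from 500 to under 2000. On the 140 barcodes of 2000 and above it was 0.0628%, and leaving out barcodes richer in the KO cauda removed none of these. Most of their UMIs lay on barcodes also listed in the KO cauda. Over the 19 not listed there (59388 UMIs), the share was 1.06%. With all barcodes there was no steady increase below 500 UMIs: the share was 1.67% at 20 to 49, 0.748% from 100 to under 200 and 1.57% from 200 to under 500, before 6.60% from 500 to under 2000. Smcp stood at 2690 CPM on barcodes of 1 to 4 UMIs, 7003 at 20 to 49, 17125 from 200 to under 500 and 38461 from 500 to under 2000, while Odf1 stood at 2624, 6148, 8951 and 13937 CPM in the same bins. With every barcode included, Odf1 gave 0.975 UMIs per Smcp UMI on the smallest barcodes, 1.15 at 50 to 99 UMIs, 0.363 from 500 to under 2000 and 0.528 at 2000 and above, and 0.778 over the whole library, so the ratio did not run steadily with barcode size. The globin genes, transcripts of red blood cells, took 0.486% of UMIs at 1 to 4 UMIs, 1.93% at 20 to 49, 0.218% from 200 to under 500 and 11.3% from 500 to under 2000, so the bin with the highest share of the 10 genes also had the highest globin share; in the cluster of 26 barcodes richest in the 10 genes, described with the cell clusters, it was 0.0288%. At least 3 of the 10 genes were present on 0.537% of barcodes of 20 to 49 UMIs, 19.4% from 100 to under 200, 37.0% from 200 to under 500 and 53.8% from 500 to under 2000. On barcodes of 2000 and above this was 35% (49 of 140), and the most on any barcode, 8, was found there. With all barcodes these shares were 0.529%, 5.65%, 13.8% and 51.2% up to under 2000 UMIs, and again 35% above.

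**Figure D2:**
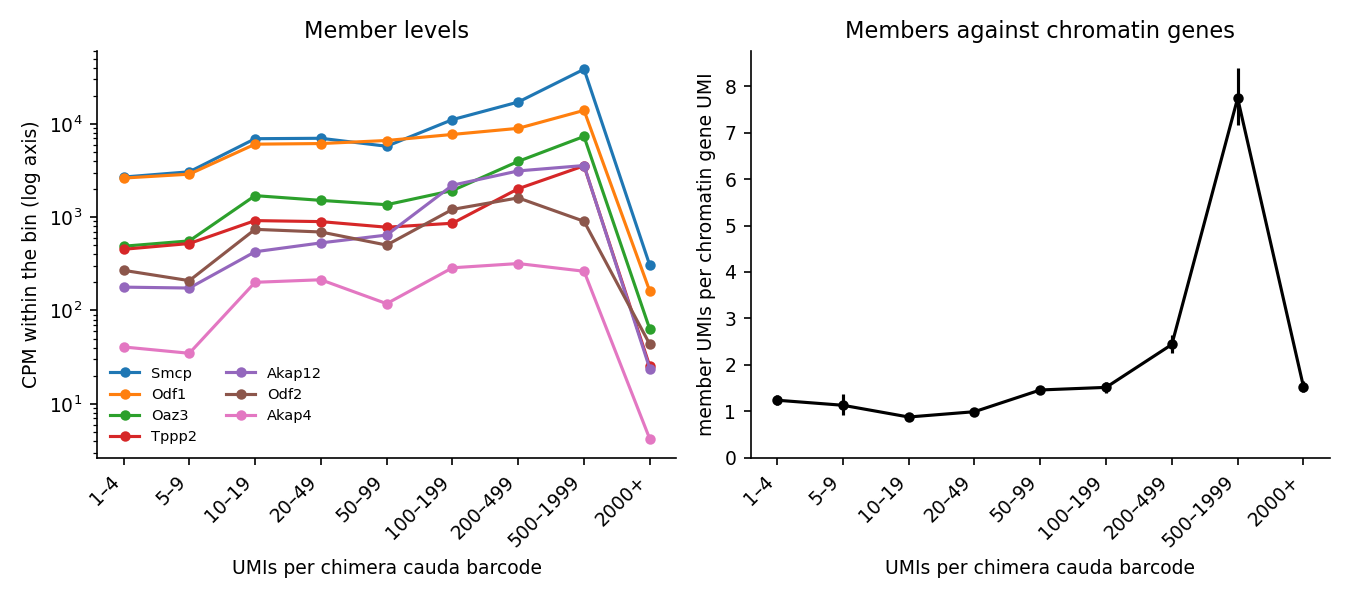
Left, level of 7 genes in CPM (log axis) within bins of UMIs per chimera cauda barcode, without barcodes richer in the KO cauda; right, UMIs of the 10 genes per UMI of sperm chromatin genes in the same bins, with exact 95% intervals. Smcp and Odf1 lead in every bin. Of the bins drawn, the ratio to chromatin genes is highest at 7.74 on barcodes of 500 to under 2000 UMIs.

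The 7 sperm chromatin genes, protamines, transition proteins and linker histones that package DNA in spermatids, were set beside the tail genes as a measure of other spermatid transcripts. Over all chimera barcodes there were 1.23 UMIs (1.21 to 1.25) of the 10 genes per chromatin gene UMI. Without barcodes richer in the KO cauda, this ratio was 0.988 (0.968 to 1.01) at 20 to 49 UMIs, 1.46 (1.39 to 1.52) at 50 to 99, 2.44 (2.25 to 2.64) from 200 to under 500 and 7.74 (7.16 to 8.39) from 500 to under 2000. On barcodes of 2000 and above the ratio was 1.53 (1.42 to 1.65). Over the 19 of these not listed in the KO cauda it was 11.4 (8.67 to 15.4). The make-up of the tail transcripts also differed with chromatin UMIs. On the 68 barcodes of at least 100 UMIs that carried 10 or more chromatin UMIs, Odf2 made up 13.9% of the UMIs of the 10 genes (183 of 1316) and Akap4 3.57% (47 UMIs), against 1.48% and 0.16% on the 397 barcodes with none. On the same sets of barcodes Odf1 made up 15.1%, against 27.1% where there were no chromatin UMIs, and Smcp 42.6% against 51.9%. Odf2 there stood at 2186 CPM (1881 to 2527), and at 4781 CPM (4055 to 5598) over the 65 of these barcodes not listed in the KO cauda. Of the 68 barcodes, a single one of 4162 UMIs held 26 of the 183 Odf2 UMIs, 11 of the 47 Akap4 UMIs and 4 of the 8 Akap3 UMIs. The 4 sets of barcodes were defined by chromatin UMIs and were not of equal depth, with medians of 145 UMIs where there were none and 229 where there were 10 or more.

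**Figure D3:**
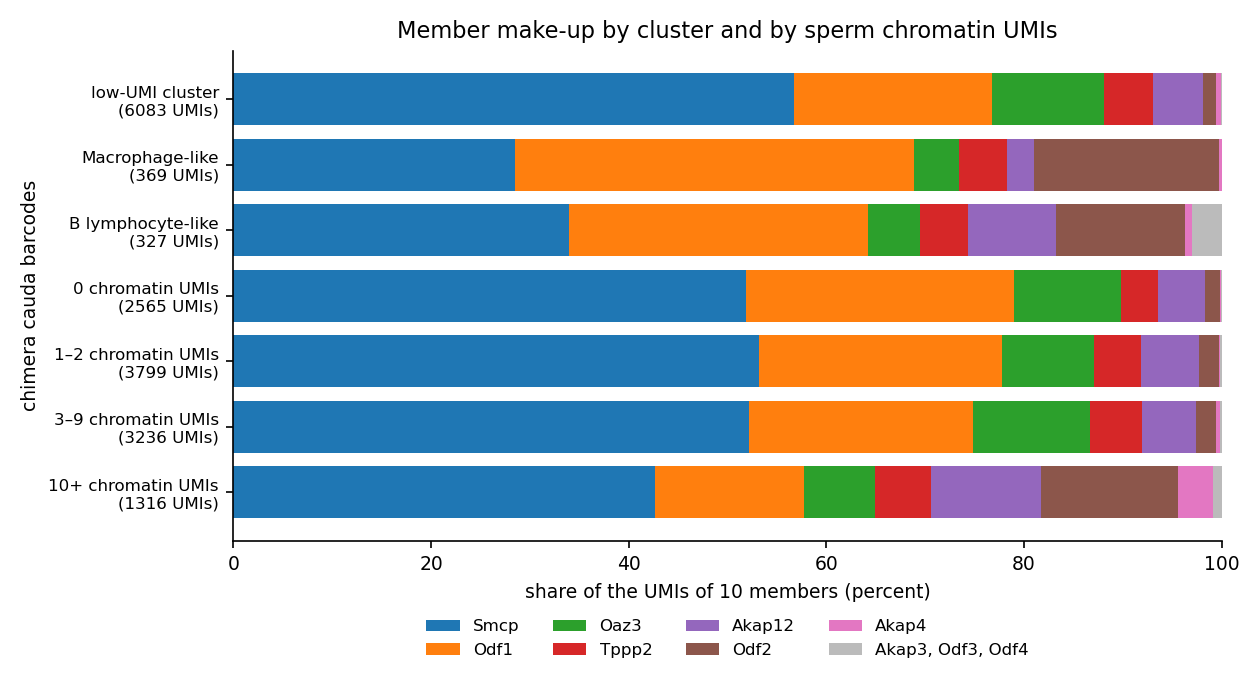
Share (percent) of the UMIs of the 10 genes taken by each gene, in the 3 chimera cauda clusters and in chimera barcodes of at least 100 UMIs set apart by their sperm chromatin UMIs (without barcodes richer in the KO cauda); the number of UMIs behind each bar is printed at its left. Odf2 takes 13.9% and Akap4 3.57% where there are 10 or more chromatin UMIs, and Odf2 18.7% in the Macrophage-like cluster.

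Joint presence was described on the 47196 chimera barcodes of 20 to under 500 UMIs as the number of barcodes carrying both genes of a pair over the number expected if the genes were placed independently among barcodes of equal UMIs. The median over 21 pairs of the 7 genes with enough UMIs was 1.57, and 1.23 without barcodes richer in the KO cauda, so part of the excess went with those barcodes. Oaz3 and Tppp2 met 1.95 times the expected number (1.64 to 2.29), and 1.54 times (1.30 to 1.81) without those barcodes. Smcp and Oaz3 met 1.67 times the expected number (1.54 to 1.81), and 1.44 times (1.32 to 1.56) without them. Odf1 and Smcp, the most abundant pair, met 1.26 times the expected number (1.19 to 1.32), and 1.13 times (1.07 to 1.19) without them, a ratio that was 1.09 at 20 to 49 UMIs and 1.60 from 200 to under 500. Akap12 had ratios with Smcp of 1.89 (1.68 to 2.12) and 1.51 (1.34 to 1.69) without them. The pair of Odf1 and Odf2 met 1.15 times the expected number (0.990 to 1.33), and 0.997 times (0.859 to 1.15) without them. Odf1 and Akap4 met 1.08 times (0.801 to 1.42), and 0.908 times (0.674 to 1.20) without them, and the intervals of both pairs include 1 either way.

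**Figure D4:**
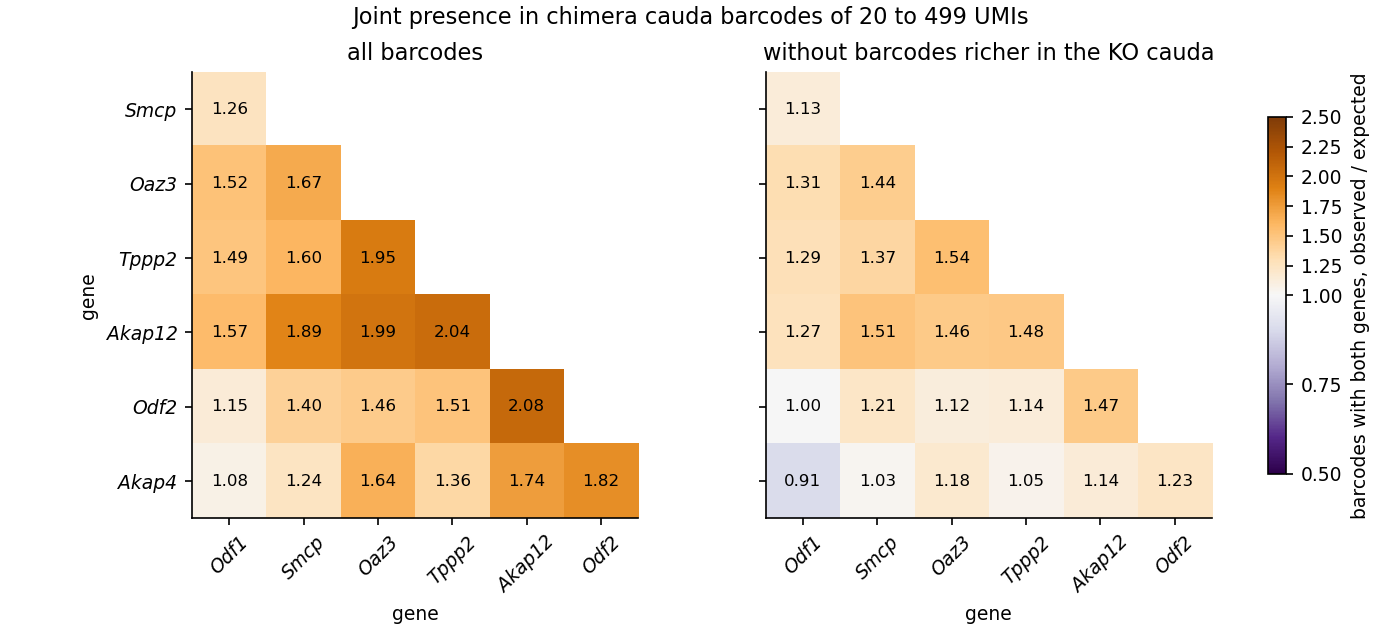
Barcodes carrying both genes of a pair, observed over expected, on chimera cauda barcodes of 20 to under 500 UMIs, with all barcodes (left) and without barcodes richer in the KO cauda (right). Values above 1 (orange) mean more joint presence than expected within barcodes of equal UMIs; Odf2 with Akap12 is highest at 2.08 on the left, and Smcp with Akap12 is at 1.51 on the right.

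Taken as 1 set, the 8 genes other than Odf2 and Akap12 were present on 15276 (32.4%) of these barcodes. With this set, Akap12 met 1.48 times the expected number and Odf2 1.19 times, against 1.24 and 1.07 without barcodes richer in the KO cauda. The chromatin genes met it 1.08 times (1.05 to 1.11), against 1.01 (0.985 to 1.04) without them, the globin genes 1.06 times (1.03 to 1.09), the secreted epididymal genes 1.002 times (0.960 to 1.05) and the leukocyte genes 0.976 times (0.955 to 0.998). Without barcodes richer in the KO cauda, the globin genes met the set 1.002 times (0.977 to 1.03), the epididymal genes 0.985 times (0.943 to 1.03) and the leukocyte genes 0.980 times (0.959 to 1.002), so that the intervals of all 4 lists then included 1. With all 47196 barcodes, 14 (1.31%) of 1069 genes with at least 200 UMIs in them reached 1.5, and the median was 0.945. This ranking of genes was not repeated without barcodes richer in the KO cauda. The 10 highest named genes were Pdzd8 (1.67), Chl1 (1.64), Fem1c (1.62), Ubxn11 (1.57), Fhl4 (1.56), Tcea1 (1.55), Crisp2 (1.54), Dcun1d1 (1.54), Fam243 (1.53) and Lrrc8b (1.52). Crisp2 encodes a cysteine-rich secretory protein of the sperm tail and acrosome and Fhl4 a testis-expressed LIM domain protein.

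Other genes of the same structures were read from lists of the structure's proteins. Of all measured genes, 9.71% were at least 4-fold higher in the chimera cauda. A listed gene with 3 or fewer KO cauda UMIs passed the filter only through the chimera cauda and could not fall below 4-fold. Each list of these structures, and that of the chromatin genes, held such genes. All 9 measured genes of the other fibrous sheath list were at least 4-fold higher in the chimera cauda (median log2 ratio 6.34), including the sperm glycolytic enzymes Gapdhs (1646-fold) and Ldhc (597-fold) and the anchoring partners Spa17 (62.5-fold) and Cabyr (45.1-fold). Of 18 measured axoneme and tektin genes, 17 were (median 4.80), among them Meig1 (91.2-fold), Dnah1 (69.8-fold) and Rsph1 (11.3-fold), and Spag16, with 0 KO cauda UMIs, had a ratio of 147 against 3 UMIs (lower limit 116). The mitochondrial sheath and annulus list had 6 of 9 (median 3.30): Spata18 had a ratio of 3659 (1250 to 17766; 3 KO cauda UMIs) and Armc12 of 675 (118 to 26962; 1 KO cauda UMI), while Gpx4, a selenoprotein of the capsule that all cells also use, had a ratio of 1.19 and Vdac3 one of 1.20. The list of other outer dense fibre genes and paralogs had 3 of 6 (median 2.79), with Odf3b at 54.3 (12.5 to 492, 2 KO cauda UMIs), Spag4 at 19.4 and Odf2l at 0.862. Odf3l1, with 0 KO cauda UMIs, had a ratio of 31.0 against 3 UMIs (lower limit 21.6). All 7 chromatin genes were at least 4-fold higher (median 9.28), with Prm2 at 4002, Prm1 at 1063, Tnp2 at 588 and Tnp1 at 587, but 148 of their KO cauda UMIs lay on the barcode of 714 UMIs described above. Without barcodes richer in the other cauda library, Prm2 had 20473 UMIs against 2, a ratio of 84336 (23344 to 696434), Prm1 7360 against 1, a ratio of 60637 (10880 to 2395360), Tnp2 2863 against 3, a ratio of 7863 (2688 to 38149), and Tnp1 2258 against 0, a ratio of 6201 against 3 UMIs (lower limit 5039). In that setting 9 of 9 fibrous sheath genes (median 6.59), 17 of 18 axoneme and tektin genes (4.81), 7 of 9 mitochondrial sheath and annulus genes (3.40), 3 of 6 other outer dense fibre genes and paralogs (2.85) and 7 of 7 chromatin genes (12.6) were at least 4-fold higher, against a median of 0.23 for all measured genes. Sept4, at 3.88 with all barcodes, was the gene added, at 4.12 (1.27 to 11.9, 6 UMIs against 12), and is named after its values were seen. Without those barcodes, 10.3% of all measured genes were at least 4-fold higher in the chimera cauda. All 7 chromatin genes then had 3 or fewer KO cauda UMIs and could not fall below 4-fold. Akap14, Tekt3, Odf3l2 and Rsph6a, with 3 or fewer UMIs in each cauda, were not measured, and the last 2 had 0 in the chimera cauda.

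Among paralogs and partners that somatic cells also use, 0 of 6 protein kinase A subunits, 1 of 9 other AKAP genes, 1 of 4 antizyme and TPPP paralogs and 0 of 11 centriole appendage genes were at least 4-fold higher. With 9.71% of all measured genes that much higher, these small counts do not set the lists apart, and they were the same without barcodes richer in the other cauda library. The protein kinase A subunits had a median log2 ratio of 0.37, with Prkar2a at 2.59, Prkar1a at 1.38, Prkaca at 1.20 and Prkacb at 0.894. The AKAP gene counted was Akap1, the anchoring protein of the mitochondrial outer membrane, at 4.84, while Akap8l was at 1.64, Akap8 at 1.07 and Akap13 at 0.807. Of the antizyme and TPPP paralogs, Tppp3 reached 4.13 and Tppp 3.57, Oaz2 stood at 1.29 and Oaz1, the general antizyme, at 0.874. The centriole appendage genes, whose proteins lie with Odf2 at the centriole, had a median of 0.31, with Sclt1 at 3.0, Nin at 1.28, Cep170 at 0.888 and Cntrl at 0.772. Ccdc68 had 0 UMIs in the chimera cauda and 4 in the KO cauda, a ratio of 5.82 with the 0 set to 3 UMIs (upper limit 11.8), and Akap6 had 0 in both. Of genes that mark other cells, the 4 globin genes were all higher in the chimera cauda, Hba-a1 120-fold, Hba-a2 96.3-fold, Hbb-bt 89.1-fold and Hbb-bs 78.5-fold; the part of red blood cells in any ratio above was not tested. No secreted epididymal gene (0 of 6) reached 4-fold, with Crisp1 at 1.02, Spink8 at 1.004, Cuzd1 at 1.48 and Defb28 at 1.41. No leukocyte gene (0 of 5) did, with Lyz2 at 1.21, Cd74 at 0.734, Cd79a at 0.668 and H2-Aa at 0.629.

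The larger chimera barcodes fell into 3 clusters, formed with the 10 genes left out. Of 184 barcodes kept, 73 were Macrophage-like, 85 were B lymphocyte-like, and 26 formed a cluster with a median of 1239.5 UMIs, against 13292.5 over all kept barcodes. The last was left without a cell type name because of that low count and because none of the listed markers was among its 10 leading genes, although all 12 spermatid markers were raised in it; its leading genes included Tspan6, Cabs1, Pdzk1 and Crisp2. The labels call the whole library spermatids and spermatozoa, and 158 of the 184 kept barcodes were leukocyte-like. In the 26 barcodes the 10 genes took 17.5% of all UMIs (6083 of 34734), and chromatin genes 4.09%, globin genes 0.0288%. Smcp stood at 99413 CPM (3453 UMIs), Odf1 at 34923, Oaz3 at 19865, Akap12 at 8867, Tppp2 at 8810, Odf2 at 2246 and Akap4 at 864, Akap3 had 5 UMIs, and Odf3 and Odf4 had 0. Smcp and Odf1 were found on 26 of 26 of these barcodes, none of which was richer in the KO cauda.

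The leukocyte-like chimera barcodes carried the same transcripts at a low level. The 10 genes took 0.0192% of UMIs in the Macrophage-like cluster and 0.0358% in the B lymphocyte-like cluster. Odf1 made up 40.4% and Smcp 28.5% of these UMIs in the Macrophage-like cluster, and Odf1 30.3% and Smcp 33.9% in the B lymphocyte-like one. Odf2 stood at 35.9 CPM (27.9 to 45.5) in the Macrophage-like and 47.1 CPM (34.1 to 63.4) in the B lymphocyte-like cluster, and made up 18.7% of the 10 genes' UMIs in the Macrophage-like cluster. Odf2 and, in the B lymphocyte-like cells, Akap12 were also carried by these classes in the KO cauda, but at lower levels, given below. The levels of the other genes lie in cell types that should lack them. None of the chimera levels, those of Odf2 and Akap12 included, was read as expression in these cells. Over barcodes of at least 1000 UMIs alone, 2 clusters formed, of 80 Macrophage-like and 74 B lymphocyte-like barcodes, and none corresponded to the cluster of 26. The cluster of 26 had a median of 1239.5 UMIs, so part of it passed this minimum and was counted in these 2 clusters. The Macrophage-like levels were then 58.3 CPM for Odf2 and 144 CPM for Odf1, against 77.6 CPM for Odf1 with the minimum of 500. These levels come from different sets of barcodes, and the part of the cluster of 26 in them was not tested.

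Outside germ cells, Odf2 had UMIs in every named class of both KO libraries but the Erythroid-like one. In the KO cauda it stood at 24.5 CPM (22.2 to 26.9) in Macrophage-like, 24.0 in B lymphocyte-like, 37.1 (25.5 to 52.1) in T or NK lymphocyte-like, 17.7 in dendritic-like and 17.4 in mesothelium-like cells. Leaving out the barcodes richer in the chimera table gave 24.2 CPM in the Macrophage-like class. A cluster of 25 barcodes led by the cell division genes Ccna2, Hmmr, Kif4 and Ccnb2 had 92.5 CPM (71.7 to 117). Odf2 was on 22 of these 25 barcodes. A cluster of 241 barcodes with few UMIs, left unnamed although 6 of 6 epithelium markers were raised in it, had 138 CPM (109 to 171). Akap12 in the KO cauda was at 1.47 and 7.46 CPM in the B lymphocyte-like clusters and at 0.0580 CPM in the Macrophage-like class.

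The KO testis barcodes fell into 15 clusters, 12169 barcodes in all. Odf2 was highest in the Spermatocyte-like cluster at 92.5 CPM (77.9 to 109), next in Sertoli-like cells at 65.4 CPM (59.7 to 71.4) and then in T or NK lymphocyte-like cells at 51.5 CPM (40.4 to 64.6), the intervals of the last 2 overlapping. It stood between 15.7 CPM (14.6 to 16.9; Leydig-like) and 31.1 CPM in the other clusters that had an Odf2 UMI, and at 0 UMIs in the Erythroid-like cluster, where a count of 0 allows up to 38.2 CPM. The dividing-cell gene Top2a stood at 956 CPM in the T or NK lymphocyte-like and 566 CPM in the Spermatocyte-like cluster. Its part in the Odf2 levels was not tested. The T or NK lymphocyte-like cluster, of 116 barcodes, also had Mxd3 and Depdc1a among its leading genes. With finer clustering (Leiden resolution 1.0), 75 barcodes were T or NK lymphocyte-like, and 66 formed an unnamed cluster led by these same genes. The 51.5 CPM was therefore not read as a level of lymphocytes alone. A single Spermatocyte-like barcode of 54103 UMIs held 28 of that cluster's 141 Odf2 UMIs and 8 of the 11 Odf4 UMIs of the library.

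Akap12 was the member with the highest level outside germ cells. In Sertoli-like cells, the somatic cells that support germ cells, it stood at 659 CPM (641 to 678) and was found on 480 of 505 barcodes (95%). The interstitial fibroblast-like clusters had 334, 303 and 129 CPM, the peritubular myoid or smooth muscle-like cluster 239, Pericyte-like cells 170 and Endothelium-like cells 121. Leydig-like cells had 35.9 CPM, the Spermatocyte-like cluster 19 (12.7 to 27.3), and the Macrophage-like clusters 9.57 and 8.80. The last are the lowest levels that rest on more than 3 UMIs; the Erythroid-like cluster had 1 Akap12 UMI (12.7 CPM, 0.323 to 71) and could not be ranked. The Spermatocyte-like cluster was the 1 named germ cell cluster of this testis.

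**Figure D5:**
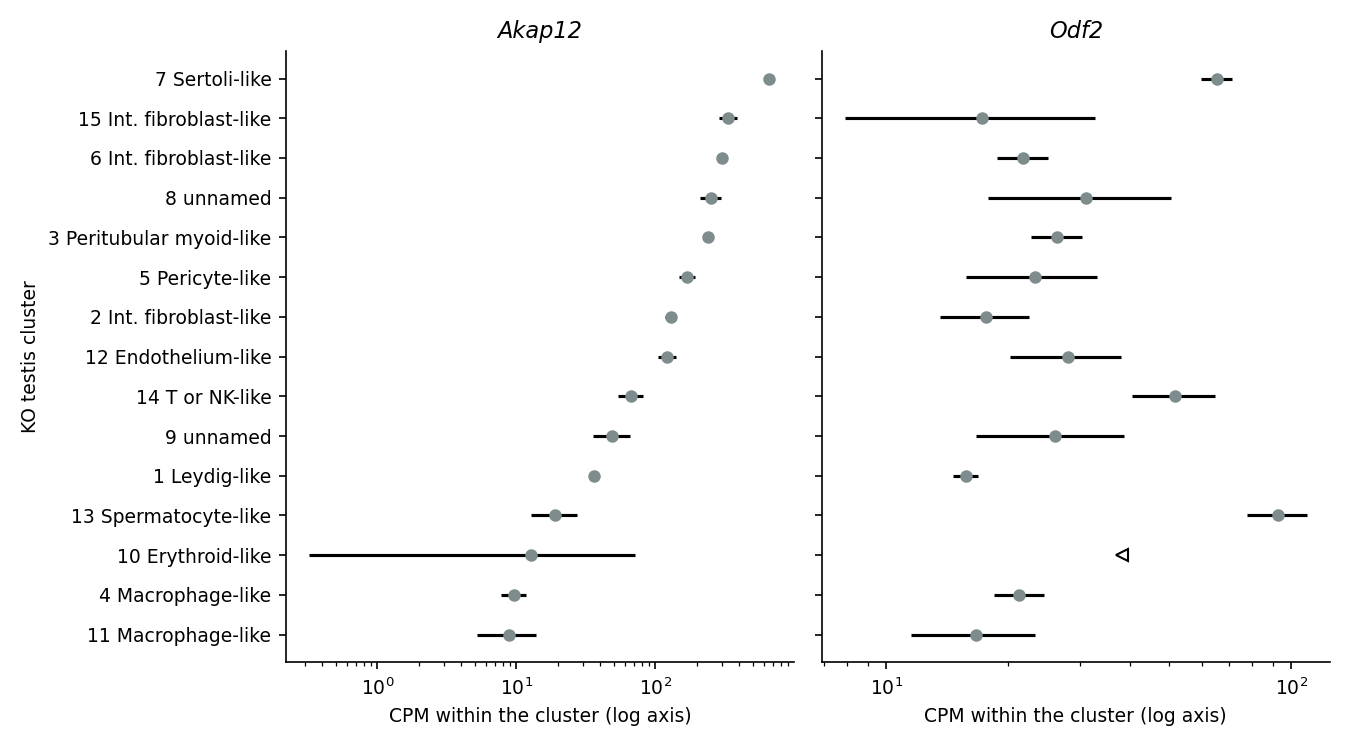
Level in CPM (log axis) of Akap12 (left) and Odf2 (right) in the 15 KO testis clusters, ordered by Akap12, with exact 95% intervals; the open triangle marks 0 UMIs, drawn at the level that 3 UMIs would give. Akap12 is highest in the Sertoli-like cluster at 659 CPM and Odf2 in the Spermatocyte-like cluster at 92.5 CPM.

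The other members left few UMIs in the KO testis. Of the 33 Odf1 UMIs, 16 were in Sertoli-like cells (2.15 CPM, 1.23 to 3.49), 1 on each of 16 barcodes, and 5 in an unnamed cluster in which 7 of 9 Sertoli markers were raised (9.73 CPM), against 3 in the far larger Leydig-like cluster (0.0624 CPM). No chromatin gene UMI was found in the Sertoli-like cluster. The highest of these genes in the whole KO testis library, Tnp1, had 19 UMIs, so this absence tells little. Of the 38 Tppp2 UMIs, 25 were in Leydig-like cells (0.520 CPM, 0.336 to 0.767), 1 on each of 25 barcodes, with 1 in Sertoli-like and 1 in T or NK lymphocyte-like cells. Oaz3 was spread, with 5 UMIs in Leydig-like, 6 in Macrophage-like, 3 in Spermatocyte-like, 3 in fibroblast-like and 2 in Sertoli-like cells. Smcp had 1 UMI in the kept barcodes. Markers of elongating or condensed spermatids summed to 201 UMIs (0.0132%) in the Spermatocyte-like cluster, of which the barcode of 54103 UMIs held 100.

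The genes whose level most resembled that of Odf2 and of Akap12 over the 15 testis clusters were ranked by Pearson correlation of log2(CPM + 1) among 18234 genes; the other 8 members had too few UMIs. For Odf2 they were Usp39 (r = 0.980), Smpd4 (0.980), Vars (0.978), Ash2l (0.977) and Ubap2 (0.976). For Akap12 they were Prickle1 (0.961), Ctdspl (0.947), Lpar1 (0.928), Cdr2l (0.920) and Bok (0.917). The clusters share 1 library, so these values describe the clusters and carry no test.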

How the data were processed

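The deposited files are gene-by-barcode matrices of raw UMI counts made by the authors, per the file headers, from 3′ libraries of v3.1 chemistry. Per the submitters' processing notes, Cell Ranger 6 and Seurat 4.2.1 were used with GRCm38.p6; the file headers give Cell Ranger 4 for the chimera cauda and 6.1.2 for both KO libraries, so software version and chimera status cannot be told apart. The chimera matrix lists barcodes down to 1 UMI, the KO matrices only barcodes of 500 UMIs and above. CPM are UMIs per 1000000 of the library or cluster total, and ratios are CPM ratios with exact conditional binomial intervals. With 0 UMIs in the KO cauda, a ratio is taken against 3 UMIs, and its exact interval has a lower limit only. For clusters, barcodes with at least 500 UMIs, 200 genes and at most 20% mitochondrial UMIs were kept, the barcodes with the highest simulated-doublet score (0.8% per 1000 barcodes) were removed (0 in the chimera cauda, 99 in the KO cauda, 1493 in the KO testis), and 2000 variable genes, 30 principal components and 15 neighbours entered Leiden clustering at resolution 0.5 (scanpy 1.11.5, igraph 0.11.9, scikit-learn 1.9.0, numpy 2.4.6, scipy 1.17.1, pandas 2.3.3, Python 3.11.15). Scripts were tested on simulated data. Promoter windows came from RefSeq. The marker and gene lists are those of the structures and cell types named in the text. Members, lists and alternatives were chosen with earlier results of these data known. Named were all members, the 4 genes of each list with most chimera UMIs, the 10 highest in joint presence and the 5 most alike.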

Additional observations from a re-analysis of the deposited data

How the results depend on the processing

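Over barcodes of at least 500 UMIs, the median log2 ratio of the members in the chimera cauda over the KO cauda was 7.88. Over all barcodes, a minimum of 100 CPM in the higher library left 6 members, all counted as at least 4-fold higher and all passing through the chimera cauda. The share of member UMIs on small barcodes was 77.7% below 200 UMIs and 85.3% below 1000. With all barcodes, the median joint presence was 2.11 on barcodes of 50 to under 500 UMIs and 2.10 when presence needed 2 UMIs. Neither was repeated without barcodes richer in the KO cauda, whose removal lowered the main median. The pair of Odf1 and Akap4 was at 0.922 when barcodes were matched on UMIs other than the members' own and at 0.908 without barcodes richer in the other cauda library, where Odf1 and Odf2 were at 0.997; the cause was not tested. Members per chromatin gene UMI came to 1.14 without Akap12 and Odf2 and, with all barcodes, to 1.13 at 5 to 9 UMIs, 0.874 at 10 to 19, 0.988 at 20 to 49, 1.46 at 50 to 99, 1.47 from 100, 2.37 from 200, 7.74 from 500 and 1.53 from 2000. In the KO testis, Akap12 in Sertoli-like cells stood at 636 CPM over barcodes of at least 1000 UMIs, 520 CPM at most 10% mitochondrial and 562 CPM with doublets kept, and Odf2 at 54.6 CPM and 56.9 CPM under the last pair. In the chimera cauda, Odf2 and Odf1 in the Macrophage-like cluster stood at 58.3 and 144 CPM over barcodes of at least 1000 UMIs. There 2 clusters formed in place of 3 and took in barcodes of the low-UMI cluster of 26.

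No paired analysis was possible because each group was 1 library. The alternatives that leave out shared barcodes, and the strata of 10% width, were chosen after seeing the data. With 1 library a group nothing can be said of variation between animals. Odf3, Odf4 and Akap3 rest on at most 42 UMIs, and free RNA, red blood cells and the Cell Ranger version were not separated from the chimera's values.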
